A study of Mus musculus with 39 samples.

Results

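Fatty acid oxidation was followed through 43 genes that were chosen by name: 20 encode mitochondrial enzymes and carriers, 13 encode peroxisomal ones, and 10 act outside both organelles or in fuel choice. The members were taken by gene symbol from expression tables that hold 11556 genes in any of 5 experiments. All 43 were listed in hepatocytes, 33 in marrow monocytes of the 4 h experiment, 32 in those of the 17 h experiment, 30 in the experiment on CCR2-/- mice and 32 in spinal cord monocytes. Of them, 30 were listed in every experiment and 10 in hepatocytes alone: Slc27a2, Fabp1, Ehhadh, Acaa1b, Acot3, Acot4, Acot12, Bdh1, Pdk4 and Vnn1.

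RNA was sequenced in 39 libraries from mice 8 to 12 weeks old, labelled C57BL/6 or CCR2-/-. CCR2-/- mice lack a chemokine receptor of monocytes, and a background strain for them is not stated here. Hepatocytes were isolated by liver perfusion and centrifugation from mice that were fed (n = 3) or fasted (n = 2) for 4 h and from mice that were fed (n = 2) or fasted (n = 3) for 12 h. Monocytes were sorted from bone marrow after 4 h with or without food (n = 4 and 4), after 17 h with or without food (n = 3 and 4), and, all with food, from C57BL/6 (n = 3) or CCR2-/- mice (n = 3). Monocytes were also sorted from the spinal cord of C57BL/6 mice in which a model of multiple sclerosis, experimental autoimmune encephalomyelitis (EAE), had been induced and that ate freely (n = 4) or went through alternating 24 h periods with and without food for 4 weeks (n = 4). Fed mice had food at will, all mice had water, and bedding was changed when food was removed. The labels do not tell whether libraries of a group came from separate animals, so p-values measure a spread that may be partly technical.

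Fatty acids enter cells with the help of transporters, are coupled to coenzyme A, and cross into mitochondria through the carnitine shuttle, whose entry step is Cpt1a. Inside, each turn of the β-oxidation spiral (dehydrogenation, hydration, a further dehydrogenation and thiolysis) removes acetyl-CoA, and the electrons pass through the electron transfer flavoprotein to the respiratory chain. Peroxisomes run a parallel spiral that shortens very long and branched chains and hands the products on to mitochondria. In the fasted liver the pathway is known to feed ketone body synthesis, and many of its genes are known targets of the nuclear receptor PPARα.

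Values were taken as TPM, a unit that divides each gene's reads by its length and then by the sum over the library, and differences are fasted minus fed on log2(TPM + 1) with their standard error (SE). Calls were made in limma, fitted over all genes of an experiment, where the p adjusted by Benjamini and Hochberg over those genes was under 0.05. Without read counts the depth behind each value is unknown, and precision comes from the spread between libraries alone. Hepatocyte libraries listed all 12 hepatocyte markers examined, at summed levels of 88628 to 109002 TPM, and all 14 Kupffer cell (liver macrophage) markers. The 10 monocyte markers were listed in all marrow and spinal cord experiments. Library pairs of 1 group correlated at 0.964 to 0.994 in marrow and at 0.964 to 0.992 in hepatocytes, except for the 2 libraries of hepatocytes fasted for 4 h (r = 0.917). Pairs of spinal cord libraries correlated at 0.841 to 0.988.

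In hepatocytes fasted for 4 h, the fatty acid transporters Slc27a1 and Slc27a2, the carnitine shuttle genes Cpt1a and Slc25a20 and the peroxisome division factor Pex11a rose, while 9 of the 11 enzymes of the mitochondrial spiral fell. Of the 43 members, 10 rose and 17 fell, or 27 called in either direction, where 37.2% of all genes tested were called, 10.4% higher and 26.8% lower. The median difference of the members was -0.16 (log2), beside -0.22 for all genes. Mitochondrial members counted 2 higher and 12 lower of 20 (median -0.29), peroxisomal members 3 higher and 4 lower of 13 (median -0.12), and the other members 5 higher and 1 lower of 10 (median 0.41). All genes split into 928 higher and 2403 lower, and into 1391 higher and 1450 lower after removal of each library's trend on transcript length, an adjustment chosen after seeing the data. All 10 rises were also called under quantile normalization, median centring and removal of the length trend, and 9 of the 17 falls were: Acsl1, Acadm, Echs1, Etfa, Etfdh, Abcd3, Hsd17b4, Crot and Acat1.

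In hepatocytes fasted for 12 h, the members were higher far more often than lower. Of 43, 24 rose and 10 fell, where 40.3% of all genes were called, 23.4% higher and 16.8% lower, and the median difference was 0.35 beside 0.05 for all genes. Mitochondrial members were evenly divided, with 9 higher and 9 lower of 20 (median 0.09), whereas peroxisomal members counted 7 higher and 1 lower of 13 (median 0.52) and the other members 8 higher and none lower of 10 (median 1.62). All genes split into 2099 higher and 1510 lower, and into 1698 and 2027 after removal of the length trend. Of the members, 20 of the 24 rises and 8 of the 10 falls were called under all 3 scalings named above. For no comparison is the share of all genes that kept a call under all 3 given here. Values of fasted and fed libraries did not overlap for 31 members at 4 h, where 53.7% of all genes did not overlap, and for 41 members at 12 h, where 71.4% did not.

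**Figure D1:**
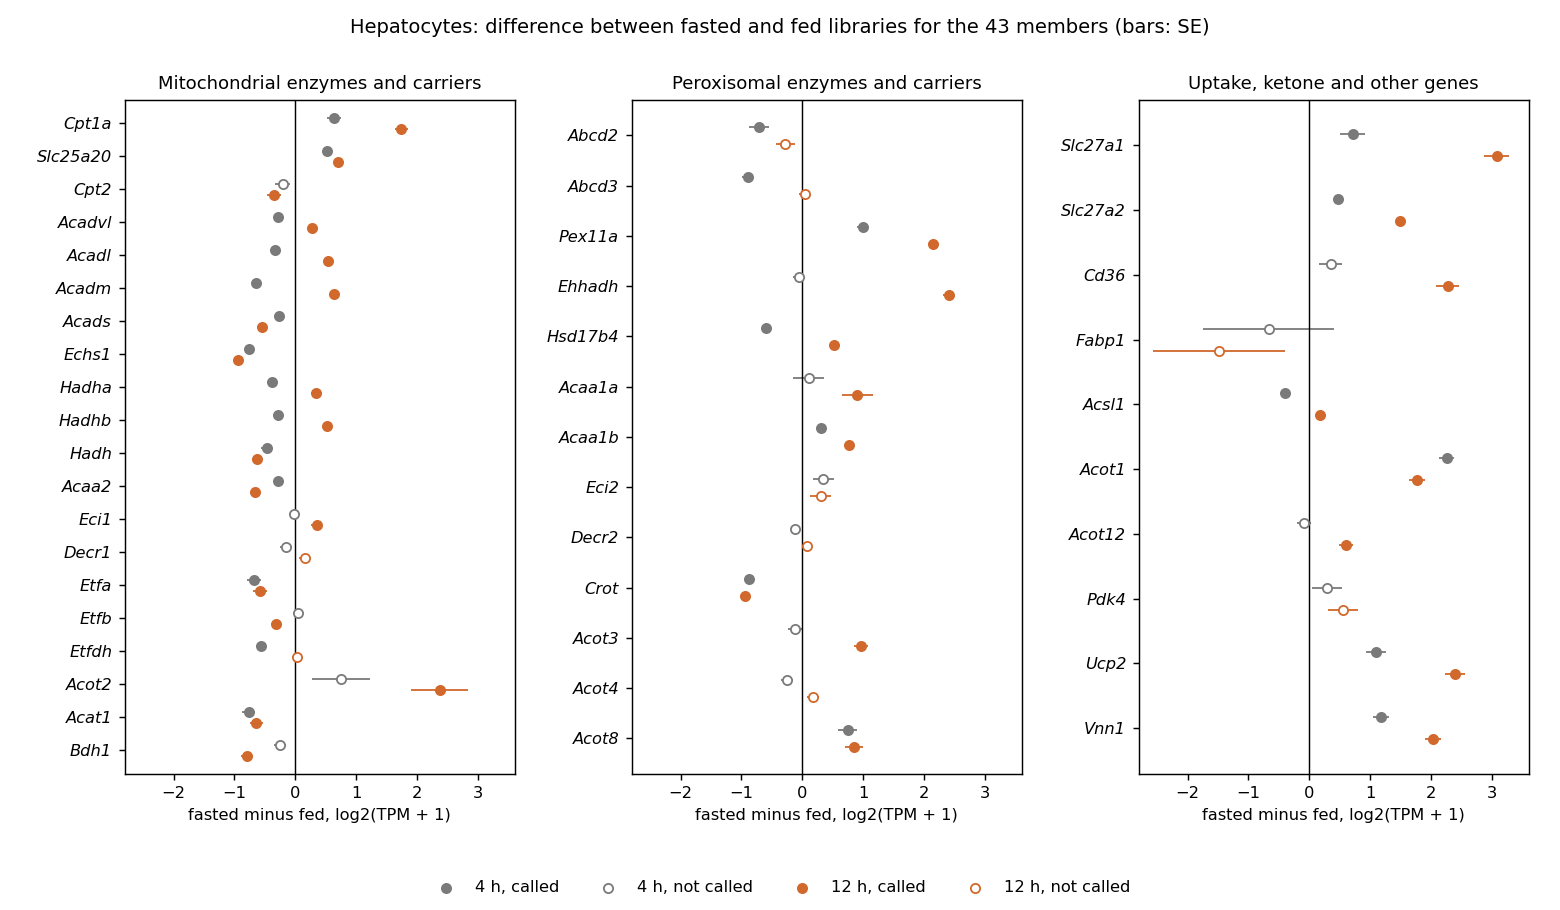
Difference between fasted and fed hepatocytes on the log2(TPM + 1) scale for each of the 43 members at 4 h (grey) and 12 h (orange), with SE bars; filled points were called by limma at an adjusted p under 0.05. Points of the mitochondrial spiral lie left of 0 at 4 h and on both sides at 12 h, from Echs1 at -0.95 to Acadm at 0.64.

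At 12 h, a few members carried much of the difference in the summed levels of each compartment. The 20 mitochondrial members summed to 5634 to 5877 TPM in livers fed for 4 h, 4600.0 to 4979.8 after a 4 h fast, 6752 to 6866 fed for 12 h and 6511 to 6718 after a 12 h fast. The 13 peroxisomal members summed to 3252 to 3527, 3455 to 3945, 4351 to 4439 and 6485 to 6857 TPM in the same order. The mitochondrial sum was lower in every fasted library than in every fed library at both times, but at 12 h Acaa2 alone went from a mean of 1485 to 932 TPM, a larger decrease than that of the sum. The peroxisomal sum was higher in every fasted library at 12 h and overlapped at 4 h. At 12 h Ehhadh went from a mean of 300.5 to 1587 TPM and Acaa1b from 1062 to 1804, while the 8 peroxisomal members listed in every experiment overlapped, at 2809 to 2891 fed and 2686 to 2941 fasted. The sums of the lists of further genes went the other way at 12 h. The 30 genes listed beside the mitochondrial members, not all of them mitochondrial, summed to 6034 to 6157 TPM fed and 6921 to 7351 fasted. By gene, however, 8 of them rose and 12 fell, with a median difference of -0.46, where 23.4% of all genes rose and 16.8% fell. The 43 further peroxisomal genes summed to 14668 to 14738 TPM fed and 11733 to 12187 fasted. Mitochondrially encoded transcripts, which are not members, summed to 14801 to 18786 TPM fed and 26826 to 28343 fasted at 4 h, and to 32878 to 34441 fed and 50669.8 to 57157 fasted at 12 h, and their part in the members' differences was not tested.

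**Figure D2:**
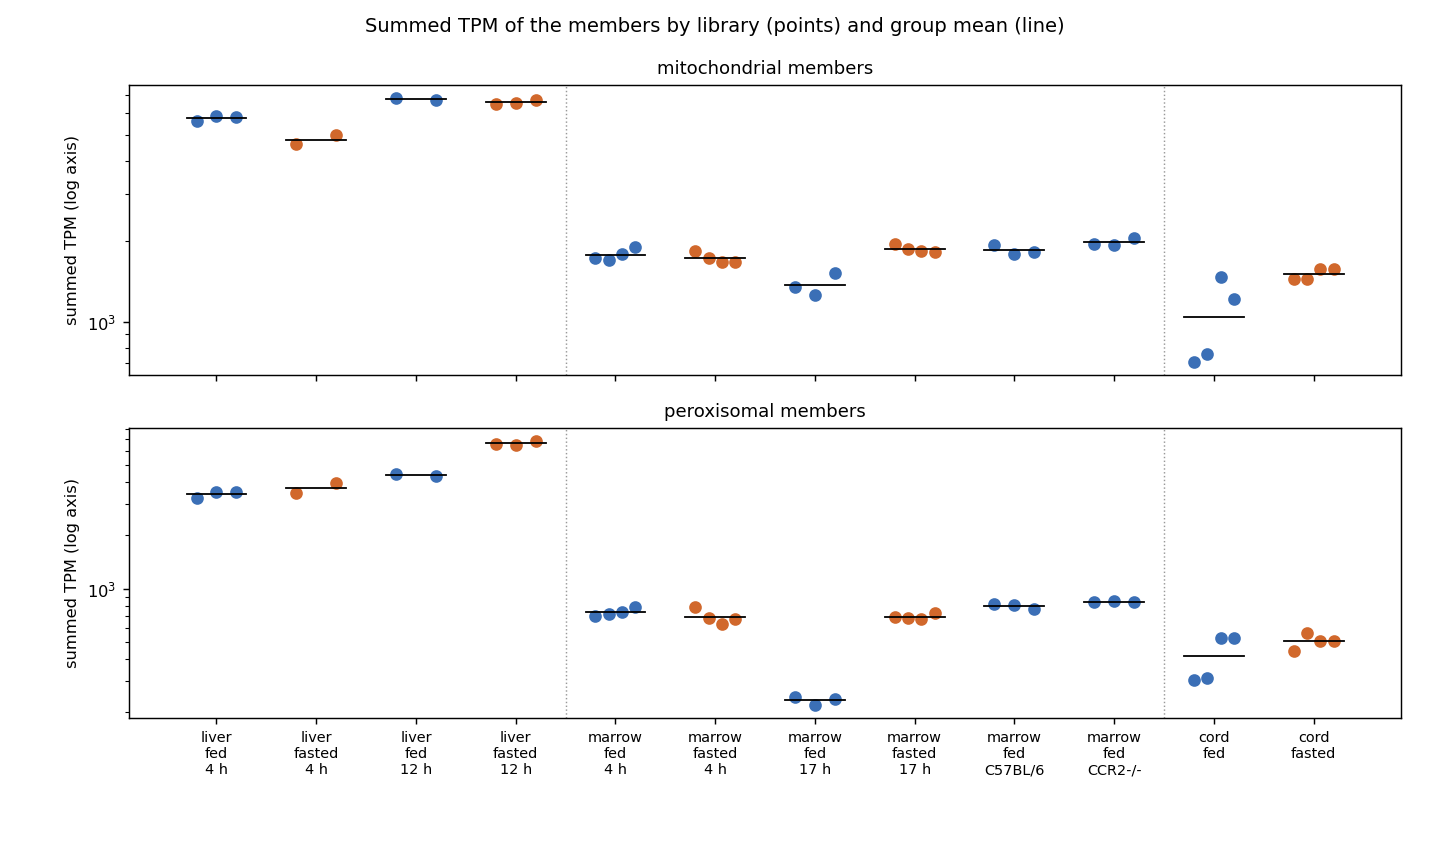
Summed TPM of the mitochondrial members (top) and the peroxisomal members (bottom) in each library, on a log axis, with group means as lines, fed in blue and fasted in orange; the number of members listed differs between tissues, which were normalized separately. Peroxisomal sums stand highest in hepatocytes fasted for 12 h (6485 to 6857) and lowest in marrow monocytes fed for 17 h (220.1 to 243).

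Among the uptake genes, Slc27a2 (a very long chain acyl-CoA synthetase and transporter) was measured at 1093, 1185 and 1120.4 TPM in livers fed for 4 h and at 1501 and 1634 after a 4 h fast. It stood at 1805 and 1753 TPM in livers fed for 12 h and at 4895, 4762 and 5248 after a 12 h fast, and was the most abundant member there. The groups did not overlap at either time, and the difference was 0.47 (SE 0.06, limma adjusted p = 0.00036) at 4 h and 1.48 (SE 0.06, adjusted p = 7.5e-08) at 12 h. Slc27a1, another fatty acid transport protein, was low in fed livers, at 9.64, 14.9 and 12.5 TPM at 4 h and 8.17 and 6.75 at 12 h, and reached 17.2 and 24.3 after 4 h and 68.6, 67.9 and 73.5 after 12 h without food. Its 12 h difference of 3.07 (SE 0.21, limma adjusted p = 2.6e-06) was the largest of the 43. Its 4 h difference of 0.71 lost its call without fed library 1, fed library 3 or fasted library 2 of that time and when the libraries of that time were fitted alone (limma adjusted p over a range of 0.0051 to 0.12 across the alternatives).

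Cd36, a scavenger receptor and fatty acid transporter, was at 17.9, 22.1 and 19.2 TPM (fed) and 19.4 and 32.8 (fasted) at 4 h, groups that overlapped. At 12 h it was at 50.2 and 47.8 TPM fed and 238, 236 and 248 fasted, a difference of 2.27 (SE 0.19, limma adjusted p = 1.1e-05). Acsl1, which activates long-chain fatty acids, fell at 4 h by 0.40 (SE 0.06, limma adjusted p = 0.0012), from 288 to 320.3 TPM fed to 235 and 231 fasted. At 12 h its difference was 0.17 (adjusted p = 0.049), a call that held under 4 of 15 alternatives and ended under median centring. Fabp1, the liver's cytosolic fatty acid carrier, scattered widely within groups, from 149 to 1835 TPM between the 2 libraries fasted for 4 h and from 544 to 1889.5 among those fasted for 12 h, and was not called at either time.

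Markers of other liver cells, Kupffer and endothelial, had higher sums in fasted than in fed libraries at both times. Slc27a1 and the mitochondrial uncoupling family member Ucp2 were also higher at both times, and Cd36 at 12 h. The 14 Kupffer markers summed to 1623 to 1659 TPM (fed) and 2574 to 2659 (fasted) at 4 h, and to 235 to 241 (fed) and 898 to 908 (fasted) at 12 h. The 12 endothelial markers listed of 13 summed to 437 to 484 (fed) and 756 to 908 (fasted) at 4 h, and to 45.4 to 48.7 (fed) and 593 to 595 (fasted) at 12 h. All 14 Kupffer markers and all 12 endothelial markers rose at 12 h, against 7 and 10 that rose at 4 h. Ucp2 was at 142, 119 and 137 TPM fed and 316 and 254 fasted at 4 h, then at 22.7 and 22.1 fed and 143, 98.3 and 128 fasted at 12 h. It rose by 1.09 (SE 0.16, limma adjusted p = 0.00096) and 2.39 (SE 0.16, adjusted p = 2.8e-06). From 4 h to 12 h both marker sums were lower with and without food, and so was Ucp2. Cd36 went instead from a mean of 19.7 to 49 TPM with food and from 26.1 to 241 without. Slc27a1 went from a mean of 12.4 to 7.46 TPM with food and from 20.8 to 70 without. In marrow and spinal cord monocytes, which were normalized separately, Ucp2 was the most abundant member, at 1311 to 4578 TPM. The part of other liver cells in these results was not tested, and fewer cells of a type and less RNA per cell cannot be told apart in bulk samples.

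The carnitine shuttle rose in its first steps. Cpt1a, the outer-membrane transferase that admits long chains, was at 54.1, 59.7 and 56.7 TPM in livers fed for 4 h and at 77 and 101 after a 4 h fast. It was at 118 and 121 TPM in livers fed for 12 h and at 405, 393 and 411 after a 12 h fast. The groups did not overlap, and the difference was 0.63 (SE 0.11, limma adjusted p = 0.0021) at 4 h and 1.74 (SE 0.11, adjusted p = 1.6e-06) at 12 h. Slc25a20, the translocase that exchanges acylcarnitine for carnitine across the inner membrane, stood at 138, 149 and 142 TPM fed and 205 and 203 fasted at 4 h. At 12 h it stood at 198 and 190.2 TPM fed and 312, 319.7 and 317 fasted. Its rises of 0.51 (SE 0.06, limma adjusted p = 0.00027) and 0.70 (SE 0.06, adjusted p = 1.2e-05) were accompanied by an interaction of fasting with time that was not called (0.20, SE 0.08, adjusted p = 0.10). Cpt2, the inner transferase that returns the acyl group to coenzyme A, fell at 12 h (-0.35, SE 0.12, limma adjusted p = 0.039), from 208 and 227 TPM fed to 162, 167 and 181 fasted. That call was not made under quantile normalization, nor when any of 4 of the 5 libraries of that time was left out.

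**Figure D3:**
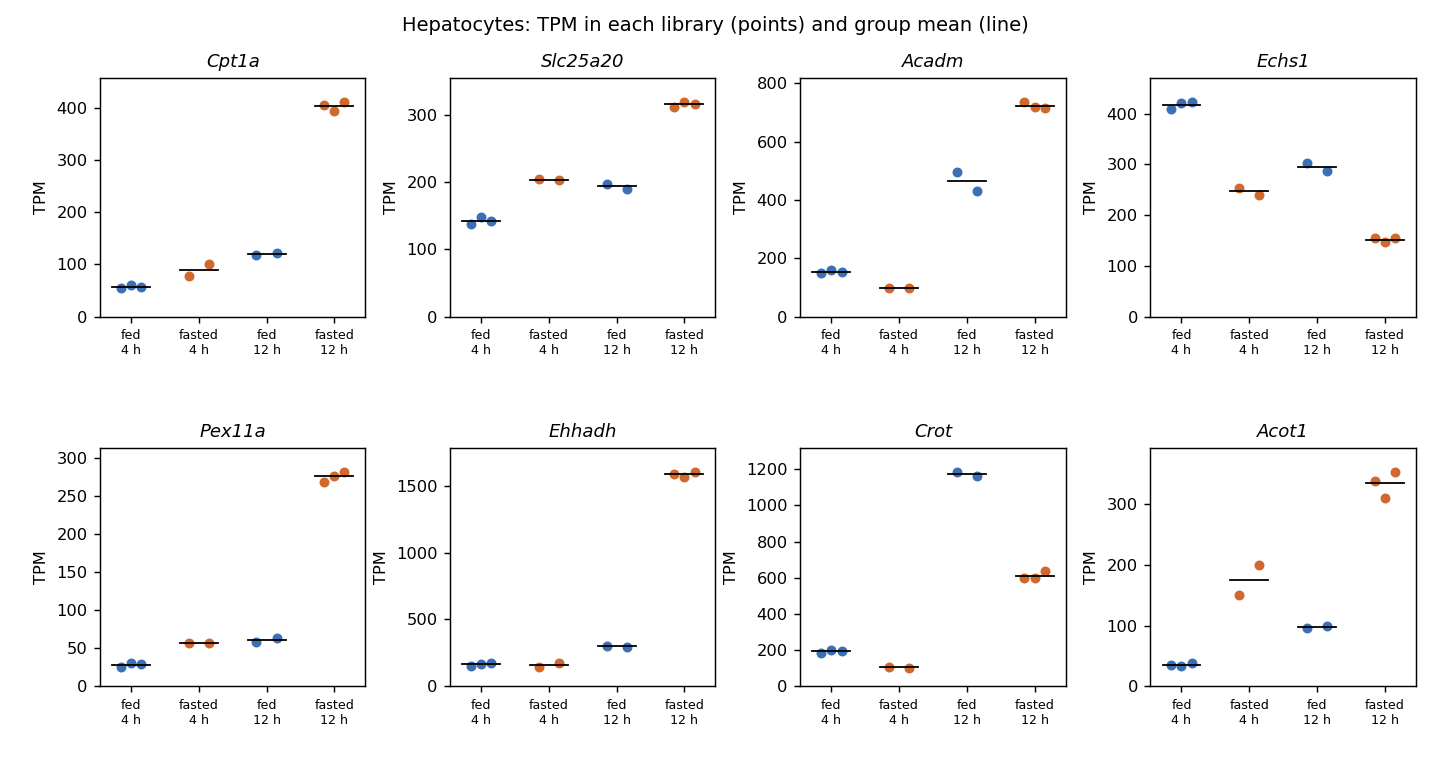
TPM of 8 members in each hepatocyte library (points) with group means (lines), fed in blue and fasted in orange, each vertical axis starting at 0. Cpt1a, Pex11a, Ehhadh and Acot1 stand highest in the 12 h fasted libraries, Acadm is lower than fed at 4 h and higher than fed at 12 h, and Echs1 and Crot are lower than fed at both times.

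The 11 enzymes of the mitochondrial spiral all had negative differences at 4 h (median -0.29), and 9 of them fell. Among all genes 5688 of 8966 differences were negative (median -0.22), and 26.8% were called lower. Of the 9 falls, only those of Acadm and Echs1 were called under quantile normalization, median centring and removal of the length trend alike. At 12 h, Acadvl, Acadl, Acadm, Hadha, Hadhb and Eci1 rose and Acads, Echs1, Hadh and Acaa2 fell. The dehydrogenases of very long, long and medium chains, Acadvl, Acadl and Acadm, fell at 4 h and rose at 12 h. Acadm was at 149.9, 158 and 153 TPM fed and 99.6 and 96.4 fasted at 4 h. At 12 h it was at 496 and 431 TPM fed and 736, 717 and 716 fasted. The groups were apart in opposite orders, with differences of -0.64 (SE 0.07, limma adjusted p = 0.00015) and 0.64 (SE 0.07, adjusted p = 5.9e-05) and an interaction of 1.29 (SE 0.10, adjusted p = 1.8e-05). Acadl differed by -0.33 at 4 h and 0.53 at 12 h, and Acadvl by -0.28 and 0.27, although neither fall at 4 h nor the rise of Acadvl was called after removal of the length trend.

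The short-chain dehydrogenase Acads fell instead at both times, by 0.27 and 0.55 on the log2 scale, with libraries at 157 and 141 TPM fed and 101, 96.8 and 104 fasted at 12 h. Its 4 h call ended under every scaling tried. Echs1, the short-chain enoyl-CoA hydratase, was at 408, 421 and 423 TPM fed and 254 and 239.6 fasted at 4 h, and at 302 and 286 fed and 154, 146 and 154 fasted at 12 h. It fell by 0.76 (SE 0.06, limma adjusted p = 3.1e-05) and 0.95 (SE 0.06, adjusted p = 1.6e-06), and the interaction was not called (-0.20, SE 0.08, adjusted p = 0.10). Hadh, the 3-hydroxyacyl-CoA dehydrogenase of medium and short chains, fell by 0.47 and 0.63. Acaa2, a mitochondrial thiolase, fell by 0.29 and 0.67, from 1493 and 1478 TPM fed to 933, 923 and 941 fasted at 12 h. Its interaction was -0.38 (SE 0.07, limma adjusted p = 0.0046), a call that ended under quantile normalization and without the mean-variance trend. The 4 h calls of Hadh and Acaa2 ended after removal of the length trend, and that of Acaa2 also without the mean-variance trend.

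Hadha and Hadhb, the subunits of the trifunctional protein that carries out the last 3 steps on long chains, moved together. Hadhb was at 194, 213 and 203 TPM fed and 157 and 174 fasted at 4 h, and at 371 and 357 fed and 500, 517 and 554 fasted at 12 h. Hadha was at 106, 117 and 104 TPM fed and 87.3 and 80.2 fasted at 4 h, and at 151 and 157 fed and 184, 187 and 216 fasted at 12 h. The interaction was 0.72 for Hadha (SE 0.13, limma adjusted p = 0.0035) and 0.82 for Hadhb (SE 0.10, adjusted p = 0.00045). The 4 h falls of the pair were not called under quantile normalization or after removal of the length trend, and the 12 h rise of Hadha was not called under median centring, with the replicate block, after removal of the length trend or without either fed library of that time. In the reference annotation, 61.2% of the 31-base words of Hadhb transcripts also occur in Gm13910, so its level depends on how reads were assigned. The isomerase Eci1 was not called at 4 h and rose at 12 h (0.35, limma adjusted p = 0.010). That call ended under median centring, after removal of the length trend and without either fed library of that time. The dienoyl reductase Decr1 was not called at either time.

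Of the 3 electron transfer genes, only Etfa fell at both times. Etfa, a subunit of the electron transfer flavoprotein, was at 233, 240 and 256 TPM fed and 129 and 177 fasted at 4 h, and at 724 and 703 fed and 489, 452 and 490.5 fasted at 12 h. Its difference was -0.68 (SE 0.11, limma adjusted p = 0.0019) at 4 h and -0.58 (SE 0.11, adjusted p = 0.0028) at 12 h. Its partner subunit Etfb was not called at 4 h (0.04) and was lower at 12 h (-0.32, limma adjusted p = 0.0080), though not under quantile normalization. Etfdh, which passes the electrons to ubiquinone, fell at 4 h (-0.57, SE 0.07, limma adjusted p = 0.00032) and had a difference of 0.02 at 12 h. The ketone body enzymes among the members, Acat1 and Bdh1, fell by 0.64 and 0.79 at 12 h. Acat1, the mitochondrial acetoacetyl-CoA thiolase, was at 335 in both fed libraries and at 198, 217 and 229 TPM in fasted libraries of 12 h.

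Of the 13 peroxisomal members 7 rose at 12 h, with the largest differences in Ehhadh and Pex11a, whereas 43 further peroxisomal genes counted 11 higher and 16 lower. The shares of all genes called at that time were 23.4% higher and 16.8% lower. Ehhadh, the L-bifunctional enzyme of the peroxisomal spiral, was at 153, 169.8 and 176 TPM fed and 143 and 177 fasted at 4 h, where the groups overlapped. At 12 h it was at 303 and 298 TPM fed and 1588, 1567 and 1604 fasted. The difference was -0.06 (SE 0.09, limma adjusted p = 0.62) at 4 h and 2.40 (SE 0.09, adjusted p = 6.9e-08) at 12 h, and its interaction of 2.46 (SE 0.13, adjusted p = 2.2e-06) was the largest of the members. Pex11a, which promotes peroxisome division, rose at both times. It was at 25.5, 30.3 and 29 TPM fed and 57.1 and 57 fasted at 4 h, and at 58.8 and 63.8 fed and 269, 276 and 282 fasted at 12 h, with differences of 0.99 (SE 0.09, limma adjusted p = 9e-05) and 2.15 (SE 0.09, adjusted p = 1.5e-07).

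Hsd17b4, the D-bifunctional enzyme that acts on branched chains, fell at 4 h and rose at 12 h. Its libraries held 173, 183 and 189 TPM fed and 123 and 118 fasted at 4 h, and 349 and 345 fed and 491, 501 and 500.1 fasted at 12 h (interaction 1.10, SE 0.08, limma adjusted p = 1.7e-05). Abcd3, an importer of acyl-CoA into peroxisomes, fell at 4 h (-0.90, SE 0.09, limma adjusted p = 0.00013) and was level at 12 h, with 502 and 497 TPM fed and 507, 501 and 531 fasted. Its relative Abcd2 was scarce at 4 h, at 6.16 to 7.94 TPM fed and 3.78 and 3.88 fasted, and its call there ended under quantile normalization. Crot, which attaches carnitine to shortened chains for export from the peroxisome, fell at both times. It was at 186, 201 and 195 TPM fed and 108 and 104 fasted at 4 h, then at 1186 and 1162 fed and 598, 598 and 635 fasted at 12 h, with differences of -0.87 (SE 0.06, limma adjusted p = 1.1e-05) and -0.94 (SE 0.06, adjusted p = 1.3e-06).

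The peroxisomal thiolases Acaa1a and Acaa1b share 35.3% and 45.7% of their 31-base words with each other, so their values depend on how reads were divided. Acaa1b rose at both times (0.30 and 0.76), from 1579 to 1645 TPM fed to 1964 and 2016 fasted at 4 h and from 1064 and 1059.7 fed to 1737 to 1851 fasted at 12 h. Acaa1a was at 407 and 835 TPM in the libraries fasted for 4 h, and its difference was 0.10 with both, 0.62 without the lower of them and -0.42 without the higher. At 12 h Acaa1a rose, from 280.2 and 306 TPM fed to 505 to 626 fasted. That call held under all 3 scalings and ended when either fed library or fasted library 3 of that time was left out. Eci2 and Decr2, the peroxisomal isomerase and reductase, were not called at either time.

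Thioesterases, which release free fatty acids from coenzyme A, counted 5 risers of 6 at 12 h and none that fell. Among all genes 23.4% rose at that time and 16.8% fell. Acot1, the cytosolic enzyme, was at 35.7, 32.9 and 39.1 TPM fed and 150.4 and 200.3 fasted at 4 h. At 12 h it was at 96.1 and 99.2 TPM fed and 338, 310.4 and 353 fasted. Its rise of 2.25 (SE 0.13, limma adjusted p = 5.8e-06) was the largest of the members at 4 h, and its 12 h rise was 1.76 (SE 0.13, adjusted p = 4.2e-06). Acot2, its mitochondrial relative, was at 3.42 and 16.3 TPM in the libraries fasted for 4 h and was called at 12 h alone (2.37, SE 0.47, limma adjusted p = 0.0032). Acot1 and Acot2 share 28.9% and 29.9% of their 31-base words with each other. Acot8 rose at both times (0.74 and 0.85), Acot3 and Acot12 rose at 12 h (0.96 and 0.60), and Acot4 was not called. Vnn1, a pantetheinase that degrades a coenzyme A precursor, was at 17.3 to 19.3 TPM fed and 36.3 and 48.8 fasted at 4 h, and at 62 and 62.4 fed and 244 to 266 fasted at 12 h (1.17 and 2.03). Pdk4, the kinase that turns off pyruvate dehydrogenase, was at 1.86 to 3.69 TPM fed and 3.65 and 3.81 fasted at 4 h and at 10.6 and 11.5 fed and 14.7 to 19.6 fasted at 12 h, and was not called at either time.

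The difference between the 12 h and 4 h contrasts was itself called for 25 members, 22 with a larger value at 12 h and 3 with a smaller one, where 30.7% of all genes were called, 23.2% larger and 7.43% smaller. The median interaction was 0.46 beside 0.33 for all genes, and 15 of the 22 were also called under the 3 scalings. All genes split into 2084 larger and 666 smaller, and into 989 and 1275 after removal of the length trend. Peroxisomal members gave 7 larger and none smaller of 13, and mitochondrial members 8 larger and 3 smaller of 20. Members with called rises at both times and no called interaction included Slc25a20, Acot1 and Acot8.

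Fed livers of 12 h and 4 h differed as well, and those groups also enter the contrasts above. From 4 h to 12 h with food, 28 members were higher and 9 lower, where 59.1% of all genes were called, 33.3% higher and 25.8% lower, with a median of 0.79 beside 0.09. All genes split into 2988 higher and 2313 lower, and into 2376 and 3106 under median centring. Crot went from 186 to 201 TPM to 1162 and 1186, Abcd3 from 136 to 170.4 to 497 and 502, and Etfa from 233 to 256 to 703 and 724. Without food, 32 members were higher at 12 h than at 4 h and 8 lower, where 69.7% of all genes were called, 46.7% higher and 23.0% lower, with a median of 1.21 beside 0.45. All genes split into 4187 and 2062 there, and into 2707 and 3243 after removal of the length trend. Groups of both contrasts did not overlap for 41 and 40 of the 43 members, beside 80.1% and 75.4% of all genes. Markers of other cells differed between the same groups. From 4 h to 12 h with food, the 5 erythroid markers listed went from sums of 3971 to 4937 TPM to 23.2 to 29.6, the 12 endothelial markers from 437 to 484 to 45.4 to 48.7, and the 5 monocyte markers listed from 611 to 641 to 28.1 to 28.7. Without food the erythroid markers went from 1453 to 2940 TPM to 344 to 417, and the part of these cells in the members' differences was not tested. The labels do not give the time of day at which livers were taken.

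Promoters of the members are shown because many of these genes are known PPARα targets, and PPARα binds direct repeats of AGGTCA spaced by a single base. RefSeq windows from 250 bases before to 50 after the start (GRCm38.p6) were at hand for 37 of the 43 members, in 43 windows. The motif AGGTCANAGGTCA, searched on both strands with up to 2 mismatches, was found in 7 of the 43 windows (16.3%), beside 3.86% of 32851 windows of all genes. The matches are printed as they read on the gene's strand, in capitals, with the 5 that read as the reverse complement of the repeat first.
Acot12: TGACCTCTCACCT
Fabp1: TGACCTATGGCCT
Acot4: TGACCTTTGGCCG
Cd36: TGGCCTCTGACTT
Etfa: TTACCTTTGCCCT
Echs1: AGGTCACGGGTCC
Slc25a20: AGGTGAAAGGTCG
The genes with a match did not share a direction: at 12 h Slc25a20, Acot12 and Cd36 rose, Echs1 and Etfa fell, and Fabp1 and Acot4 were not called. A match is a description of the letters and not evidence of binding.

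The windows of Slc25a20, which rose at both times, of Acot12, which rose at 12 h alone by the call, and of Echs1, which fell at both times, are given with the match in capitals, 5′ to 3′ on the gene's strand. They lie at chr9:108661886-108662185 (plus strand), chr13:91741271-91741570 (plus strand) and chr7:140116372-140116671 (minus strand).
Slc25a20: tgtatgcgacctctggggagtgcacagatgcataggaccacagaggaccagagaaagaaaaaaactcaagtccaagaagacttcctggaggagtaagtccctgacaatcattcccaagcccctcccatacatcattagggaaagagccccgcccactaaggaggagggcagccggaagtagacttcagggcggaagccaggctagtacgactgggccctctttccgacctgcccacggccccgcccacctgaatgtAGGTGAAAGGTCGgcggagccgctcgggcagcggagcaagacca
Acot12: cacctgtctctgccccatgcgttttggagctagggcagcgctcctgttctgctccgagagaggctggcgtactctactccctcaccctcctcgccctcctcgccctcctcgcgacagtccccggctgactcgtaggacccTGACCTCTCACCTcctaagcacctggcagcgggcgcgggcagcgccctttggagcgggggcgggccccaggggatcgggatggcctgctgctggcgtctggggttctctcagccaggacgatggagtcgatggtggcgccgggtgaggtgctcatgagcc
Echs1: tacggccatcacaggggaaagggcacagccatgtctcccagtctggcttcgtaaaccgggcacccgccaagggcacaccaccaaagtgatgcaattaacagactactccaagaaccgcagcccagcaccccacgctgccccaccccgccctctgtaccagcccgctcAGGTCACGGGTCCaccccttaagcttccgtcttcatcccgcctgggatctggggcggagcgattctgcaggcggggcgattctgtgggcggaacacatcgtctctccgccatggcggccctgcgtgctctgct
Hadha and Hadhb face away from each other on chromosome 5 (GRCm38, GENCODE M21), Hadha at 30118304 to 30155162 on the minus strand and Hadhb at 30155248 to 30184593 on the plus strand, with their starts 86 bases apart. The window of Hadhb, at chr5:30155003-30155302, takes in this GENCODE start of Hadha. The RefSeq window of Hadha, at chr5:30154931-30155230, rests on another start, which lies outside the Hadhb window, and the windows overlap only in part. The window of Hadhb is printed because the pair moved together in the liver.
Hadhb: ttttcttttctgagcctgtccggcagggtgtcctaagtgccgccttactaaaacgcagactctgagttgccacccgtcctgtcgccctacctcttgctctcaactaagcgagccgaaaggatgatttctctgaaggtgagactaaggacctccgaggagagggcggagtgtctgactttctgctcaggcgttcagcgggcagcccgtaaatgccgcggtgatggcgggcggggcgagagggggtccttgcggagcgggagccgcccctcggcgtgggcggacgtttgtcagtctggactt
Acot2, Acot1, Acot4 and Acot3 lie in this order on the plus strand of chromosome 12 within 83987861 to 84060402, and Acot2, Acot1 and Acot3 rose at 12 h while Acot4 was not called.

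Other genes came from a list of 35 kept beside the mitochondrial members, of which 30 were tested in hepatocytes. This list reaches beyond mitochondrial fatty acid oxidation, to amino acid breakdown among others, and shares Ech1 with the peroxisomal list below. It counted 4 higher and 16 lower at 4 h and 8 higher and 12 lower at 12 h. Of all genes, 10.4% were called higher and 26.8% lower at 4 h, and 23.4% and 16.8% at 12 h. Slc22a5, the carnitine importer, rose from 12.7 to 14.3 TPM fed to 29.1 and 30.6 fasted at 4 h, and from 22.3 and 23.3 to 150.4 to 171 at 12 h (1.09 and 2.78). Ivd, a dehydrogenase of leucine breakdown (-0.62 and -1.60), and Hibadh, a dehydrogenase of valine breakdown (-0.94 and -1.72), fell at both times, and Acsl3, another long-chain acyl-CoA synthetase, fell as well (-1.91 and -1.45). Of 49 further peroxisomal genes, 43 were tested, with 5 higher and 22 lower at 4 h and 11 higher and 16 lower at 12 h. Catalase (Cat), which breaks down hydrogen peroxide, fell at both times (-1.53 at 12 h), as did Nudt7, a hydrolase of peroxisomal coenzyme A (-2.13 and -3.23). Of 17 regulators tested, 5 rose and 3 fell at 4 h, and 7 rose and 3 fell at 12 h. Ppara rose at 4 h (0.58, limma adjusted p = 0.011) and was at 42.9 and 47.2 TPM fed and 40.6 to 46.6 fasted at 12 h, and Creb3l3 rose at both times (0.92 and 1.00).

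In marrow monocytes after 4 h without food, none of the 33 members listed was called by limma, where 0.424% of all genes were called, 40 of 9428. At an unadjusted p under 0.05, 2 members were higher and 4 lower, beside 474 and 994 of all genes. The median difference of the members was -0.03, beside -0.07 for all genes. Cpt1a was at 106, 106, 126 and 114 TPM fed and 133, 89.4, 107 and 136 fasted, and the groups overlapped (0.02, SE 0.13). The groups were apart for 2 members, where 8.81% of all genes were apart. These were Slc27a1, at 3.99, 3.85, 5.88 and 4.75 TPM fed and 9.94, 6.64, 9.3 and 8.99 fasted (0.79, SE 0.16, limma adjusted p = 0.069), and the trifunctional subunit Hadha, at 90.8 to 107 TPM fed and 71.6 to 85.2 fasted (-0.32, SE 0.09, adjusted p = 0.16). Slc27a1 was called under median centring and after removal of the length trend (adjusted p = 0.047 and 0.035). Among the further genes, Oxct1, which reactivates ketone bodies for oxidation, was lower (-0.49, SE 0.08, limma adjusted p = 0.030).

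At 17 h the marrow comparison was dominated by a shift of the whole table. All genes had a median difference of 1.18 between fasted and fed libraries, with 6888 genes higher and 1283 lower, beside 3737 and 3323 after each library was centred on its median. Of the 32 members listed, 27 were higher and 2 lower, where 89.5% of all genes were called, 75.4% higher and 14.0% lower, and the median of the members was 1.33. Their groups did not overlap for 29 of 32, beside 88.3% of all genes. Mitochondrial members counted 15 higher and 2 lower of 19 (median 1.20) and peroxisomal members 7 higher of 8 (median 1.33). These counts are close to those of all genes, and under median centring 15 members were higher and 8 lower.

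Several members were far lower in the fed 17 h libraries than in fed marrow of the other experiments. Cpt1a was at 12.9, 10.3 and 8.77 TPM in the 3 libraries fed for 17 h and at 109.7, 112, 107 and 171 in the 4 fasted ones. Libraries of fed mice in the other marrow experiments, which were normalized separately, held 106 to 126 TPM (4 h) and 114 to 168 (C57BL/6). Abcd2, the peroxisomal importer, was at 19.6, 20.3 and 16.3 TPM fed for 17 h and 189, 176, 174 and 175 fasted, beside 107 to 155 and 149.7 to 176 in the other fed groups. For both genes the fasted 17 h libraries stood in or near the range of the other fed groups. Slc27a1 and Acot1 differed in that the fasted 17 h libraries stood above it: Slc27a1 at 20.5 to 22.1 TPM, beside 3.85 to 5.88 in marrow fed for 4 h and 6.25 to 7.62 in fed C57BL/6 marrow, and Acot1 at 12.6 to 14.1, beside 1.32 to 3.32 in marrow fed for 4 h. The peroxisomal members listed summed to 220.1 to 243 TPM fed and 672 to 729.9 fasted at 17 h, beside 702 to 792 in marrow fed for 4 h and 768 to 816 in fed C57BL/6 marrow. Mitochondrially encoded transcripts summed to 22638 to 23582 TPM fed and 10841 to 14064 fasted at 17 h. The part of this shift in the members' differences was not tested beyond the scalings given here.

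**Figure D4:**
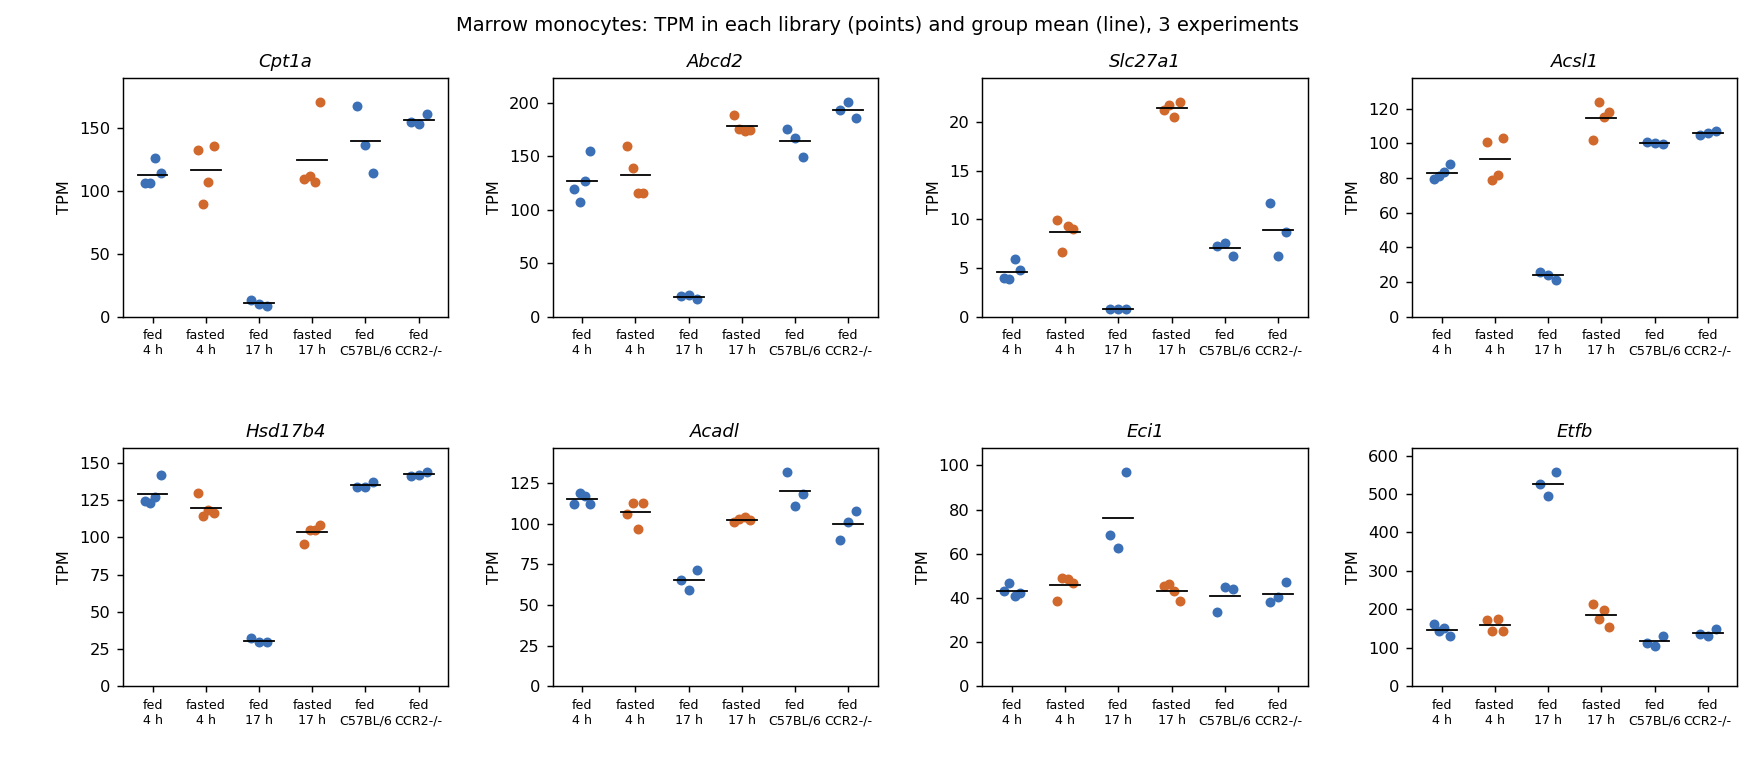
TPM of 8 members in each marrow monocyte library (points) with group means (lines) across 3 experiments, which were normalized separately, fed in blue and fasted in orange. The 3 libraries fed for 17 h stand below every other group for Cpt1a, Abcd2, Slc27a1, Acsl1, Hsd17b4 and Acadl, and above every other group for Eci1 and Etfb.

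Taken relative to the median of all genes, 12 members kept their call and direction under all 3 scalings, 10 higher and 2 lower. All genes split into 3860 higher and 2942 lower under quantile normalization and into 3687 and 2897 after removal of the length trend. How many of all genes kept a call under all 3 is not given here. Slc27a1 was at 0.783, 0.766 and 0.767 TPM fed and 21.3, 21.8, 20.5 and 22.1 fasted, with a difference of 3.66 (SE 0.11) and 2.57 under median centring. Cpt1a differed by 3.42 (SE 0.18) and by 2.32 under median centring, and Abcd2 by 3.19 (SE 0.10) and 2.10. Acot1 was at 0.698 to 1.03 TPM fed and 12.6 to 14.1 fasted (2.99, and 1.90 under median centring). Acsl1 was at 26, 24 and 21.2 TPM fed and 102, 124, 115 and 118 fasted (2.23, and 1.13 under median centring). Slc25a20, Acadvl, Acads, Hadha and Hsd17b4 were the other 5, at 0.44 to 0.87 under median centring.

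Etfb and Eci1 were lower in fasted than in fed libraries under every scaling. Etfb was at 525, 496 and 558 TPM fed and 215, 175, 199 and 155 fasted (-1.51, SE 0.12, limma adjusted p = 1e-06, and -2.60 under median centring), and in the reference annotation 62.0% of its 31-base words also occur in Gm45233. Eci1 was at 68.5, 62.8 and 97.2 TPM fed and 45.3, 46.2, 43.3 and 38.8 fasted (-0.78, SE 0.15, limma adjusted p = 0.00060, and -1.87 under median centring). Acadl, at 65.2, 59 and 71.5 TPM fed and 101 to 104 fasted, was higher as deposited (0.65) and lower under median centring (-0.44), and Cpt2, Echs1, Etfa, Decr1, Decr2, Acat1, Eci2 and Abcd3 also changed sign under at least 1 scaling. Acot8, at 27.4 to 38.6 TPM fed and 28.9 to 36.6 fasted, was not called.

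At 17 h against 4 h, the interaction of fasting with time was called for 28 members with a larger and 2 with a smaller value of 32, where 88.0% of all genes were called, 75.1% larger and 12.9% smaller. The medians were 1.36 for the members and 1.27 for all genes, and all genes split into 6638 larger and 1144 smaller. Under median centring 15 members were larger and 8 smaller, and all genes split into 3489 and 2936.

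In spinal cord monocytes of mice with EAE, 3 weakly supported rises were seen after cyclic fasting. Of the 32 members listed, 3 were higher after cyclic fasting and none was lower, where 2.43% of all genes were called, 1.58% higher and 0.859% lower. At an unadjusted p under 0.05, 9 members were higher and 1 lower, beside 1459 and 491 of all genes. The median of the members was 0.40, beside 0.26 for all genes, and 9 of 32 members did not overlap between groups, beside 15.2% of all genes. The 3 called members came from each class: Slc27a1 from uptake, Eci2 from the peroxisome and Acot2 from the mitochondrion.

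Slc27a1 was at 2.15, 3.49, 4.36 and 5.93 TPM in fed libraries and 14, 15.1, 19 and 22.5 after cyclic fasting, with no overlap (1.94, SE 0.31, limma adjusted p = 0.017). Eci2, the peroxisomal enoyl-CoA isomerase, was at 27.4, 27.4, 44.9 and 43.1 TPM fed and 73, 116, 104 and 81.1 fasted (1.38, SE 0.26, adjusted p = 0.031). Acot2 was at 2.11, 3.5, 2.23 and 3.48 TPM fed and 8.4, 8.1, 7.25 and 7.16 fasted (1.21, SE 0.26, adjusted p = 0.048), a call that ended with a pseudocount of 0.1, under quantile normalization, under median centring and with the replicate block. The call of Eci2 also ended with the replicate block. Differences were positive for 6239 of 9079 genes (median 0.26). The 11 enzymes of the mitochondrial spiral all had positive differences (median 0.5) and no call. Hadh was the farthest, at 7.91, 8.41, 32.1 and 28.7 TPM fed and 38.4, 53.9, 59.8 and 54.3 fasted (1.62, SE 0.46, limma adjusted p = 0.094). Cpt1a, at 18.4, 45.4, 65.4 and 59.3 TPM fed and 41.8 to 82.5 fasted, overlapped between groups (0.38, SE 0.40).

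The fed libraries were of different kinds. The 11 neutrophil markers summed to 185881 and 189279.8 TPM in fed libraries 1 and 2, to 13349 and 7252 in fed libraries 3 and 4, and to 12627 to 26392 after cyclic fasting. Mitochondrially encoded transcripts summed to 3039 to 11786 TPM in fed libraries and 6989 to 42143 after cyclic fasting. The mitochondrial members summed to 709 TPM at the lowest in fed libraries and 1474 at the highest, and to 1442 to 1579.6 after fasting. Echs1 was at 43.3 and 46.8 TPM in fed libraries 1 and 2, at 143 and 121 in fed libraries 3 and 4, and at 150.5 to 189 after fasting, and Hadh followed the same order. Without fed libraries 1 and 2, 774 of all genes were called, beside 221 with all libraries. In that fit Slc27a1 (1.59, limma adjusted p = 0.012, over a range of 0.0042 to 0.086 across the alternatives), Eci2 (1.05, adjusted p = 0.024, range 0.0063 to 0.14) and Acot2 (1.20, adjusted p = 0.025, range 0.025 to 0.16) stayed called. Acot1 was called as well (2.06, limma adjusted p = 0.025, range 0.025 to 0.30), and the differences of Echs1 and Hadh were 0.33 and 0.73 with no call. Leaving out fasted library 2, 3 or 4 left none of the 32 members called, and leaving out fed library 1, fed library 2 or fasted library 1 left 1.

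**Figure D5:**
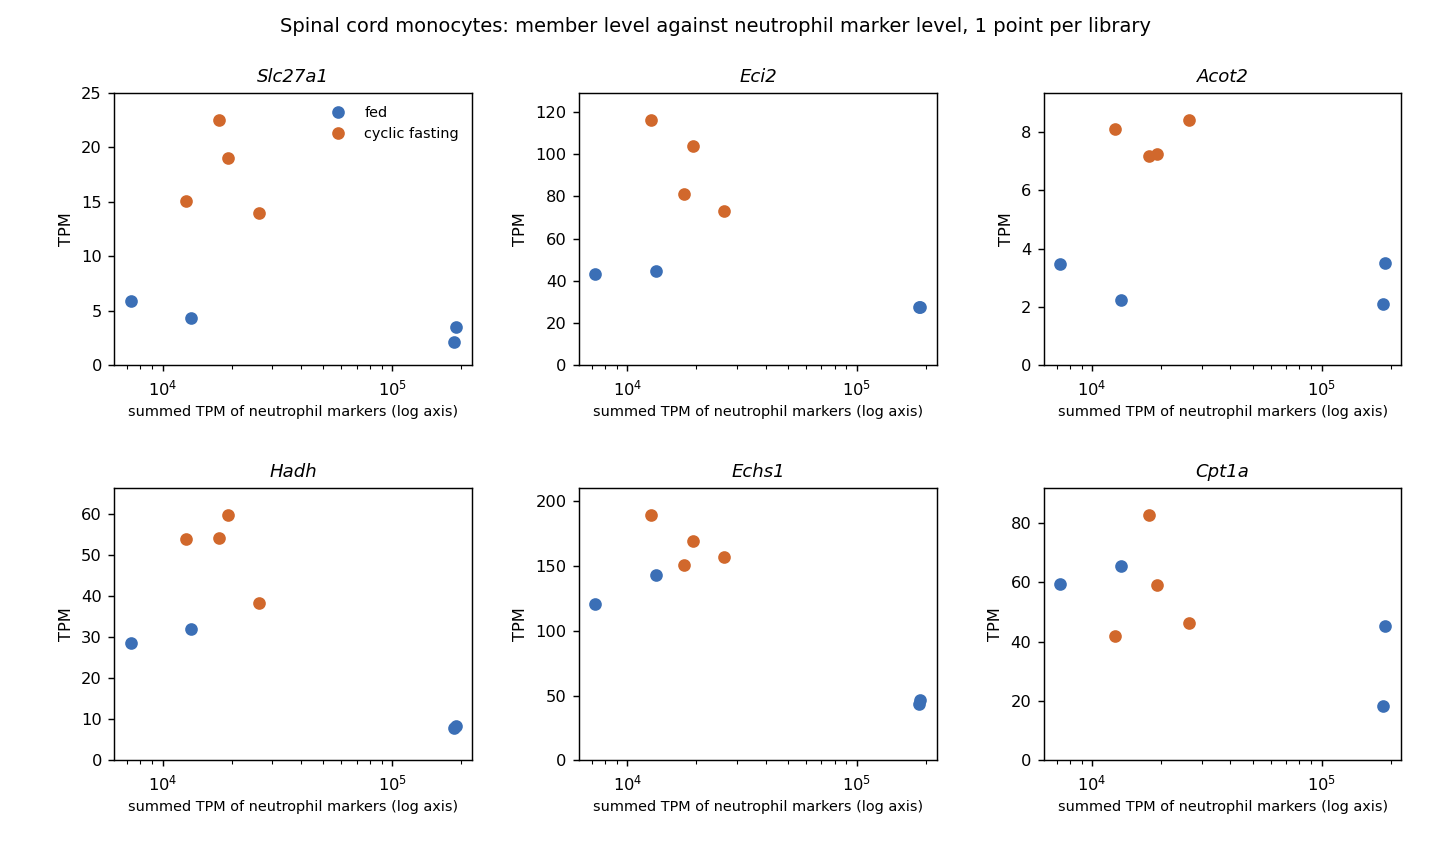
TPM of 6 members in each spinal cord library against the summed TPM of 11 neutrophil markers on a log axis, fed in blue and cyclic fasting in orange. Slc27a1, Eci2 and Acot2 stand higher in all 4 fasted libraries than in all 4 fed ones, while Hadh and Echs1 are lowest in the 2 fed libraries with neutrophil marker sums of 185881 and 189279.8.

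In marrow monocytes of fed CCR2-/- mice compared with fed C57BL/6 mice, 1 of the 30 members listed was higher and none was lower, where 4.38% of all genes were called, 0.641% higher and 3.74% lower. Eci2 was at 66.9, 77.6 and 68.2 TPM in C57BL/6 and 94.9, 92 and 96.8 in CCR2-/- mice, with no overlap (0.41, SE 0.08, limma adjusted p = 0.046). The call was lost when any of 5 of the 6 libraries was left out, CCR2-/- library 1 being the exception. Of the 30 members, 12 did not overlap between genotypes, where 33.3% of all genes did not, among them Acaa2 at 190.3 to 192 TPM in C57BL/6 and 225 to 233 in CCR2-/- (0.26, limma adjusted p = 0.052). The median difference of the members was 0.05, beside -0.03 for all genes.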

How the data were processed

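RNA sequencing covered 39 mouse libraries in 12 groups. The authors quantified reads with kallisto 0.44.0 on GRCm38, per the submitters' processing notes, and deposited 1 table per library. The deposited values were taken as TPM: they are not whole numbers and sum to 982922 to 994023 per library. The values do not settle whether transcript length was divided out, which would matter for levels compared between genes. The sources used here do not name the annotation, how transcripts were summed or the filter that left 8980 to 9449 rows. Left out were 13 to 15 rows per experiment with a date in place of a symbol.

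Values were transformed as log2(TPM + 1), which understates the change of low genes, and genes with a mean of at least 1 TPM were tested (8966 in hepatocytes, 9428, 9134, 9210 and 9079 in the other experiments). Tests were run in R 4.3.3 with limma 3.58.1 (moderated variances with a trend on mean level, robust), with Benjamini-Hochberg adjustment over all genes. The 10 hepatocyte libraries were fitted together, with an interaction of fasting with time. The monocyte experiments were fitted separately, and the marrow interaction was fitted over 15 libraries and 8844 genes. The fits were tested on simulated data. Deviations of same-numbered libraries of compared groups were correlated at -0.34 to 0.32, and no pairing was used. Depth is unknown, so no counting error is given.

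The members and the lists of other pathway genes and cell markers were chosen with earlier results of these data known. Values in every library were to be given for the called members with the largest absolute difference in each role, up to 3, and for the entry points Cpt1a, Ehhadh, Acadm, Acadl, Hadha, Acaa1a, Acaa1b, Cd36, Fabp1, Ucp2 and Pdk4, called or not. Other pathway genes named were up to 4 called per list and comparison, by absolute difference, plus Ppara; some genes of that rule are not reported here. Alternatives were no filter, a mean of at least 10 TPM, a pseudocount of 0.1, quantile normalization, median centring, no trend, no robust fit, the replicate number as a block, each library left out in turn, hepatocytes of 1 time alone and spinal cord without fed libraries 1 and 2. Removal of each library's loess trend (span 0.5) on median transcript length of GENCODE M21 was chosen after seeing the data. Shared sequence was counted as 31-base words of GENCODE M21 transcripts. Promoters are RefSeq windows of GRCm38.p6. Tables were built with pandas 2.3.3 and numpy 2.4.6 under Python 3.11.15, and plots with matplotlib 3.10.9.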

Additional observations from a re-analysis of the deposited data

Results flagged for a closer look

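In hepatocytes, the interaction term in limma was called for 30.7% of all genes, 23.2% larger and 7.43% smaller at 12 h (adjusted p under 0.05). By that term, the fasting difference at 12 h differed from that at 4 h for 25 of 43 members (log2 scale, 12 h minus 4 h). It was larger at 12 h for Slc27a1 (2.37), Slc27a2 (1.01), Cd36 (1.92), Acsl1 (0.58), Cpt1a (1.12), Acadvl (0.55), Acadl (0.86), Acadm (1.29), Hadha (0.72), Hadhb (0.82), Eci1 (0.37), Etfdh (0.59), Abcd3 (0.93), Pex11a (1.16), Ehhadh (2.46), Hsd17b4 (1.10), Acaa1b (0.46), Acot3 (1.08), Acot4 (0.42), Acot12 (0.69), Ucp2 (1.29) and Vnn1 (0.85). It was smaller at 12 h for Acaa2 (-0.38), Etfb (-0.36) and Bdh1 (-0.54), and each of these 3 calls ended under at least 1 alternative. All genes had a median interaction of 0.33, so the smaller of the positive values lie near that of the table as a whole. Between the 2 contrasts, the summed Kupffer markers went from 1623 to 1659 TPM (fed, 4 h) to 235 to 241 (fed, 12 h), and their part in the interaction was not tested.

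In marrow monocytes, the same kind of term was called for 88.0% of all genes, 75.1% larger and 12.9% smaller at 17 h. By that term, the fasting difference at 17 h differed from that at 4 h for 30 of 32 members. It was larger at 17 h for Slc27a1 (2.87), Cd36 (1.09), Acsl1 (2.10), Cpt1a (3.39), Slc25a20 (1.73), Cpt2 (1.30), Acadvl (1.80), Acadl (0.75), Acadm (1.29), Acads (1.82), Echs1 (0.71), Hadha (1.93), Hadhb (1.19), Hadh (1.70), Acaa2 (1.17), Etfa (0.32), Etfdh (1.53), Abcd2 (3.13), Abcd3 (1.30), Hsd17b4 (1.83), Acaa1a (1.53), Eci2 (1.10), Decr2 (1.42), Crot (1.73), Acot1 (2.57), Acot2 (1.76), Acat1 (0.71) and Ucp2 (0.94). It was smaller at 17 h for Eci1 (-0.85) and Etfb (-1.61). All genes had a median of 1.27 here. Of these members, 11 of the larger and both smaller ones kept their call and direction under quantile normalization, median centring and removal of the length trend. The 4 h and 17 h experiments were separate, so experiment and time cannot be told apart.

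A single library stood far from the other 3 of its group for 9 of 162 member and group pairs examined, and chance gives about 1 in 20. In marrow fed for 4 h, library 4 was high for Hadhb (199 TPM) and Decr2 (27.8). In marrow fasted for 17 h, library 4 was high for Cpt1a (171) and library 1 for Abcd2 (189). Fed spinal cord library 2 was high for Slc25a20 (57.3) and Acot1 (12.3). After cyclic fasting, spinal cord library 4 was high for Slc25a20 (51.7), and library 3 was low for Decr1 (2.29) and Crot (21.9).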

How the results depend on the processing

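For marrow at 17 h, quantile normalization gave 5 members lower, median centring 15 higher and 8 lower, and removal of the length trend 6 lower. All genes went from 6888 higher and 1283 lower as deposited to 3860 and 2942, 3737 and 3323, and 3687 and 2897, in that order. For the marrow interaction with time the members counted 4 lower, 15 larger and 8 smaller, and 18 larger and 4 smaller. All genes went there from 6638 larger and 1144 smaller to 3517 and 2489, 3489 and 2936, and 3382 and 2521. Signs turned at 17 h under quantile normalization for Cpt2 (-0.07), Decr1 (-1.31), Decr2 (-0.20) and Acat1 (-0.32), under median centring for Acadl (-0.44), Echs1 (-0.45), Decr1 (-1.07), Etfa (-0.88), Eci2 (-0.01) and Acat1 (-0.62), and without the length trend for Acadl (-0.20), Echs1 (-0.89), Decr1 (-0.51), Etfa (-0.32), Abcd3 (-0.10) and Decr2 (-0.17). In the marrow interaction they turned under quantile normalization for Cd36 (-0.45), Decr1 (-1.33), Acot8 (-0.89) and Acat1 (-0.08), under median centring for Cd36 (-0.05), Acadl (-0.39), Echs1 (-0.44), Decr1 (-1.09), Etfa (-0.83), Eci2 (-0.05), Acot8 (-1.08), Acat1 (-0.43) and Ucp2 (-0.20), and without the length trend for Cd36 (-0.52), Acadl (-0.15), Echs1 (-0.94), Etfa (-0.19), Abcd3 (-0.25) and Acot8 (-0.72).

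In hepatocytes at 4 h, 9 members and 1450 of all genes fell without the length trend. With libraries of that time alone 11 members fell, where 1744 of all genes were called. The interaction gave 1 smaller member under quantile normalization, 7 under median centring, 0 without the mean-variance trend and 8 without the length trend. All genes smaller numbered 666 as deposited, 1054 under quantile normalization, 975 under median centring and 1275 without the length trend. From 4 h to 12 h fasted, 5 members were lower without the mean-variance trend. Signs turned there under median centring for Cpt2 (-0.13), Decr2 (-0.13), Acot3 (-0.04) and Acot8 (-0.45), and without the length trend for Slc25a20 (-0.04), Decr2 (-0.43) and Acot3 (-0.29), as did Decr2 from 4 h to 12 h fed (-0.19). Without hepatocyte library 2 fasted for 4 h, Acaa1a was at -0.42 at 4 h and 0.42 from 4 h to 12 h fasted, and without library 1 at 0.62 and -0.61. In marrow at 4 h, 1 member (Slc27a1) was higher under median centring and 1 without the length trend. In spinal cord, all genes called numbered 138 at a mean of at least 10 TPM, 783 under quantile normalization with 5 members, 687 under median centring with 5, 631 without the length trend with 6, and 774 without fed libraries 1 and 2. For CCR2-/-, the members higher were 2 under quantile normalization, 3 under median centring, 4 without the length trend and 0 without the mean-variance trend, where 48 of all genes were called. All genes higher numbered 59 as deposited, 94 under quantile normalization, 123 under median centring and 163 without the length trend. The cause of these changes was not tested.

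Same-numbered libraries mostly did not deviate together: the correlations of their deviations ran from -0.34 to 0.32. No experiment with at least 3 pairs had all above 0.1. Hepatocytes at 4 h, with 2 pairs, gave 0.20 and 0.16, and CCR2-/- gave 0.32, -0.08 and 0.32, so a pairing there was not settled. With the replicate number as a block, the hepatocyte interaction had 1 smaller member, spinal cord had 1 member and 119 genes called, and CCR2-/- had 3 members higher, 1 lower and 1423 genes called.

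With each library left out in turn, the members higher and lower and all genes called ranged as follows. Hepatocytes at 4 h gave 9 to 14, 16 to 19 and 2654 to 3976, and at 12 h 19 to 23, 8 to 10 and 2449 to 3172. The hepatocyte interaction gave 20 to 24, 1 to 6 and 1603 to 3731. Fed livers over time gave 25 to 27, 7 to 9 and 4000 to 4826, and fasted ones 31 to 32, 6 to 8 and 5841 to 6360. Marrow at 4 h gave 0 to 1, 0 and 14 to 145, the highest without fasted library 1. Marrow at 17 h gave 27 to 28, 2 and 8044 to 8177, and its interaction 27 to 28, 2 and 7705 to 7777. Spinal cord gave 0 to 6, 0 and 22 to 745, the lowest without fasted library 3 and the highest without fed library 3. CCR2-/- gave 0 to 1, 0 to 1 and 11 to 1060.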
